A study of Mus musculus with 2 samples.

Results

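The chemokine ligands described here were 10 genes, Ccl2, Ccl3, Ccl4, Ccl5, Ccl6, Ccl9, Cxcl1, Cxcl2, Cxcl10 and Cxcl16, taken by name from the 35522 genes of the RNA-sequencing tables of mouse neutrophils. The neutrophils came from bone marrow, according to the study from Balb/C mice, and were sorted as CD11b+, Ly-6G high and Ly-6C low to negative cells. All cells were kept in RPMI-1640 medium with 10 ng/ml GM-CSF, a myeloid growth factor. The control culture (PBS) received PBS for 3 days, whereas the treated culture (exosomes) received 20 μg/ml tumor exosomes for 3 days. These exosomes were vesicles pelleted from the medium of cancer stem cells that had been enriched from CT26, a mouse colon cancer line, in stem cell medium. Each treatment was represented by 1 library, and whether a library held cells of several animals is not given. No replicate spread therefore exists for any value, no test of the treatments was possible, and a ratio below compares these libraries alone.

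Chemokines are small secreted proteins that set the direction in which leukocytes move. They fall mainly into CC and CXC classes according to whether the first cysteines of the mature protein are adjacent or separated by 1 residue, and they act through G protein-coupled receptors. Neutrophils both respond to chemokines, chiefly through CXCR2 and CCR1, and release them after stimulation. CXCL1 and CXCL2 attract further neutrophils, CCL2 attracts monocytes, CCL3, CCL4 and CCL5 attract monocytes and lymphocytes, and CXCL10 attracts activated T cells. CCL6 and CCL9 are rodent CC chemokines that signal through CCR1, and CXCL16 is made as a membrane-anchored ligand of CXCR6.

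The coding sequences show the class of a member. The windows below, given for 9 of the 10 members, run from 4 codons before the first cysteine of the class motif to 4 codons after the second, with the cysteine codons in capitals (GENCODE M21, build GRCm38). Each window lay within 1 exon, exon 3 in Ccl6 and Ccl9 and exon 2 in the others shown. In the 5 CC genes shown the cysteine codons adjoin.
Ccl2 (chr11:82036494-82036523, plus strand): gccccactcaccTGCTGCtactcattcacc
Ccl4 (chr11:83663470-83663499, plus strand): cctcccacttccTGCTGTttctcttacacc
Ccl5 (chr11:83529230-83529259, minus strand): gacaccactcccTGCTGCtttgcctacctc
Ccl6 (chr11:83589374-83589403, minus strand): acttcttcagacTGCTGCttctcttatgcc
Ccl9 (chr11:83575914-83575943, minus strand): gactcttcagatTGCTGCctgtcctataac
In the 4 CXC genes 1 codon stands between them.
Cxcl1 (chr5:90891484-90891516, plus strand): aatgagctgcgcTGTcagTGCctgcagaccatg
Cxcl2 (chr5:90904130-90904162, plus strand): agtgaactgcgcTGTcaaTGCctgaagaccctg
Cxcl10 (chr5:92348169-92348201, minus strand): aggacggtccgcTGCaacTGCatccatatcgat
Cxcl16 (chr11:70459115-70459147, minus strand): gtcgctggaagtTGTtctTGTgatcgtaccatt
The closest coding pair was Cxcl1 and Cxcl2, with 75.7% identical bases, gaps counted as differences, followed by Ccl3 and Ccl4 with 68.1% and Ccl6 and Ccl9 with 64.6%. The proteins encoded have 91 (Ccl5) to 148 (Ccl2) residues, apart from the 246 of Cxcl16, whose product also carries a stalk and a membrane anchor. Over stretches of 50 bases, the messages of Cxcl1, Ccl2, Ccl3, Ccl4, Ccl5 and Ccl6 shared no sequence with a transcript of another gene. Cxcl2 shared 3.28% of its stretches with Cxcl3, Ccl9 shared 2% with transcripts of 463 other genes, Cxcl10 shared 5.54% with Art3, and Cxcl16 shared 20.0% with Zmynd15. How reads of shared sequence were counted is not given in the sources used here, so the values of these 4 genes are less certain. Zmynd15 itself stood at 0.08 RPKM with PBS and 0.16 RPKM with exosomes, and Art3 at 0.02 RPKM in both libraries.

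RPKM, the unit of all levels here, is a read number scaled by the exon length of the gene and by the mapped reads of the library, so levels can be set beside each other between genes. Mapped reads were estimated at 65.97 M (M, mega) for PBS and 79.14 M for exosomes. Of the neutrophil markers, all 10 were present in both libraries, and all 10 were at least 2-fold lower with exosomes, against 5.62% of the 9698 genes with 0.25 RPKM or more in both libraries (summed level 83740 RPKM with PBS and 29854 RPKM with exosomes). Of 11 monocyte and macrophage markers, all 11 had the higher level with exosomes, and their sum was 164.6 RPKM with PBS and 462.6 RPKM with exosomes. The median ratio of the 9698 genes was itself 1.44, so a higher level was common. Only 6 of the 11 markers reached 0.25 RPKM in both libraries, and 4 of these 6 were at least 2-fold higher, against 31.5% of the 9698 genes. With the libraries centred on their median ratio it was 3 of the 6, against 16.8%. None of the 11 was at 0 in either library, although the macrophage markers Mertk, Fcgr1, C1qa, C1qb and C1qc had at most 0.3 RPKM with PBS and 3.79 RPKM with exosomes. The sums of 4 B cell markers were 104.1 and 64.1 RPKM, and those of 6 T and NK cell markers 57.7 and 7.69 RPKM, nearly all of it Cd3d, with Cd3e at 0.06 and 0.04 RPKM. Markers of dendritic cells (6 genes, summed levels 2.65 and 1 RPKM), eosinophils (5 genes, 10.64 and 5.29 RPKM), mast cells and basophils (5 genes, 2.38 and 2.72 RPKM) and epithelial cells (4 genes, 0.59 and 0.20 RPKM) were low. The part of these shifts in the chemokine results was not tested.

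Across the 10 ligands the libraries differed in which ligand led. Ccl6 was the most abundant ligand with PBS and Ccl3 with exosomes, while Cxcl2 and Ccl4 stayed close to their PBS level. With the limits that the study states for its lists of changed genes, applied here to both libraries, a gene was kept at an RPKM of at least 0.25 in both libraries and called at a ratio of at least 2 between them. Of the 10 ligands 9 were kept, and Ccl2 was not, because of its low level with PBS. Of these 9, Ccl3 and Cxcl16 were called higher with exosomes (22.2%), against 31.5% of all 9698 genes kept. Ccl6 alone was called lower (11.1%), against 5.62% of all genes kept. The other 6 stayed within 2-fold. The median log2 ratio of the 9 ligands was -0.08, beside 0.53 for all genes kept. The median of all genes kept depended on level. It was 0.04 for the 1099 genes with a mean of at least 50 RPKM and 0.59 for the rest. Ccl6, Cxcl2, Ccl3 and Ccl4 lie in the higher band. Centring the libraries on their median takes away the same 0.53 log2 units at every level. After it Cxcl16 alone was called higher and Ccl5 and Ccl6 lower, with 16.8% of all genes kept called higher and 13.2% lower.

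**Figure D1:**
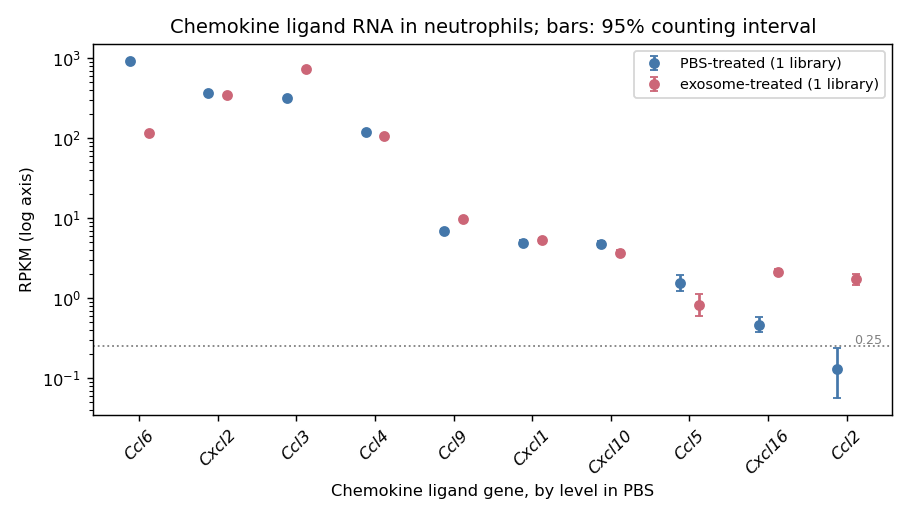
RPKM (log axis) of the 10 chemokine ligand genes, ordered by their level with PBS, in the PBS-treated (blue) and exosome-treated (red) library; bars are 95% counting intervals and the dotted line marks 0.25 RPKM. Ccl6 leads with PBS at 921.59 and Ccl3 with exosomes at 725.93, and Ccl2 is below the line with PBS only.

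Summed over the 10 ligands, the level was 1746.3 RPKM with PBS and 1321.02 RPKM with exosomes, a ratio of 0.756. The 4 abundant ligands Ccl6, Cxcl2, Ccl3 and Ccl4 held 98.9% of this sum with PBS and 98.2% with exosomes. The share of Ccl6 was 52.8% with PBS and 8.88% with exosomes, and that of Ccl3 was 18.35% and 54.95%. Without Ccl6 the sum was 824.71 RPKM with PBS and 1203.73 RPKM with exosomes. The lower total thus rested on Ccl6, the other 9 ligands together having a ratio of 1.46. The median ratio was 1.44 for all genes kept. For genes with a mean of at least 50 RPKM, where the 4 abundant ligands lie, it was 1.03. The ratio of 1.46 rested on Ccl3, at 320.37 RPKM with PBS and 725.93 RPKM with exosomes. The other abundant ligands, Cxcl2 (366.71 and 346.81 RPKM) and Ccl4 (118.72 and 107.48 RPKM), had the lower level with exosomes.

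Ordered by level, the PBS library ran Ccl6, Cxcl2, Ccl3, Ccl4, Ccl9, Cxcl1, Cxcl10, Ccl5, Cxcl16 and Ccl2. With exosomes the order was Ccl3, Cxcl2, Ccl6, Ccl4, Ccl9, Cxcl1, Cxcl10, Cxcl16, Ccl2 and Ccl5. The counting intervals of the neighbours Cxcl1 and Cxcl10 overlapped with PBS, and those of Cxcl16 and Ccl2 overlapped with exosomes. The order within these pairs is therefore less certain, although an overlap is not a test of a difference. A gap stood between the 4 abundant ligands and the rest in both libraries: Ccl4 was 17.0 times Ccl9 with PBS and 10.99 times Ccl9 with exosomes. Intervals in this text are 95% intervals of estimated reads and cover counting error only, since reads amplified by PCR are not independent molecules and cultures differ as well.

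Ccl6 (ENSMUSG00000018927, chromosome 11, 83587882 to 83593087, minus strand) had the largest decrease of the 10 ligands. Its level was 921.59 RPKM with PBS and 117.29 RPKM with exosomes. The PBS level was the 24th highest of the whole table, and the exosome level ranked 423. The ratio of exosomes to PBS was 0.127 (counting interval 0.125 to 0.130), and only 1.14% of all genes kept were at least 4-fold lower. Among the 9698 genes kept, 30 had a ratio as low as that of Ccl6 or lower, Ccl6 included. Of the genes with a mean level of at least 50 RPKM, where the 4 abundant ligands lie, 16 of 1099 (1.46%) were at least 4-fold lower. In a bulk sample, fewer cells that carry a message and less of it per cell cannot be told apart. Beside the decrease of Ccl6, the neutrophil markers had a median ratio of 0.217. Over the levels of both libraries, the genes nearest to Ccl6 were Ngp (862.34 and 85.01 RPKM), Mmp8 (832.76 and 199.67 RPKM) and BC100530 (494.21 and 141.75 RPKM), at distances of 0.474, 0.781 and 0.94 log2 units.

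Ccl9 (chromosome 11, 83572919 to 83578636, minus strand), the closest relative of Ccl6 among the members, is its neighbour at a distance of 9.2 kb. Its level was 6.99 RPKM with PBS and 9.78 RPKM with exosomes, a ratio of 1.40 (counting interval 1.309 to 1.497), near the 1.44 at the median of all genes kept. After median centring the log2 ratio of Ccl9 was -0.04 in place of 0.48. The messages of these neighbours therefore differed in their change: Ccl6 stood at 131.8 times Ccl9 with PBS and at 11.99 times with exosomes. A ratio of genes within a library does not depend on how the libraries are scaled.

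Ccl3 (ENSMUSG00000000982, chromosome 11, 83647844 to 83649355, minus strand), which encodes MIP-1α, was the ligand with the largest gain in level. Its level was 320.37 RPKM with PBS and 725.93 RPKM with exosomes, and its rank went from 131 to 32. The ratio was 2.27 (counting interval 2.23 to 2.31). Among the 1099 genes with a mean level of at least 50 RPKM, 12.5% were at least 2-fold higher with exosomes, and their median log2 ratio was 0.04. The call of Ccl3 depended on the scaling, with a log2 ratio of 1.18 as deposited and 0.65 after median centring.

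Ccl4 (chromosome 11, 83662584 to 83664683, plus strand), which encodes MIP-1β and lies 13.2 kb from Ccl3, did not follow it. Its level was 118.72 RPKM with PBS and 107.48 RPKM with exosomes, a ratio of 0.905 (counting interval 0.872 to 0.940). Ccl3 stood at 2.70 times Ccl4 with PBS and 6.75 times with exosomes. On the same chromosome, 42.4 kb from Ccl9, Ccl5 (83525778 to 83530518, minus strand), which encodes RANTES and shares receptors with CCL3 and CCL4, was rare, at 1.57 RPKM with PBS and 0.83 RPKM with exosomes. These levels stood for about 69 and 44 reads. The ratio of Ccl5 was 0.529, and its counting interval of 0.356 to 0.787 spanned the 2-fold limit.

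**Figure D2:**
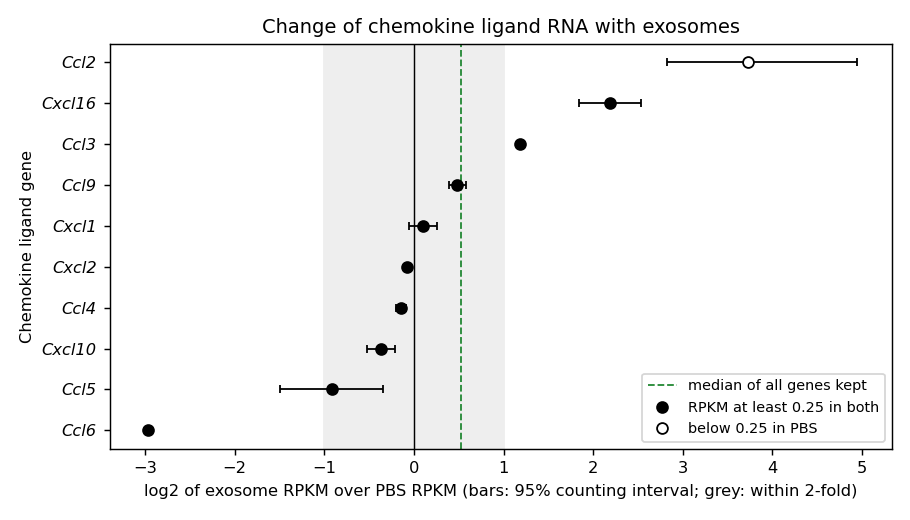
Log2 of the exosome over the PBS RPKM for each of the 10 chemokine ligand genes, with 95% counting intervals as bars; the grey band is the range within 2-fold and the dashed green line is the median of all genes kept, 0.53. Ccl3, Cxcl16 and Ccl2 (open point, below 0.25 RPKM with PBS) lie above the band, Ccl6 at -2.97 lies below it, and the other 6 points lie within it.

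The neutrophil attractants Cxcl1 (chromosome 5, 90891241 to 90893115, plus strand) and Cxcl2 (chromosome 5, 90903871 to 90905938, plus strand) are 10.8 kb apart. Cxcl2 was abundant, at 366.71 RPKM with PBS and 346.81 RPKM with exosomes. The ratio of Cxcl2 was 0.946 (counting interval 0.934 to 0.957), a difference far smaller than the 2-fold limit. Cxcl1 stood at 4.97 RPKM with PBS and 5.33 RPKM with exosomes, a ratio of 1.07. Counting error alone allowed Cxcl1 a ratio from 0.964 to 1.19, so a difference was not detectable at this depth. Its log2 ratio was 0.10 as deposited and -0.43 after median centring. Cxcl2 was 73.8 times Cxcl1 with PBS and 65.1 times with exosomes.

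Cxcl10 (chromosome 5, 92346638 to 92348889, minus strand), the interferon-inducible ligand of CXCR3, had the lower level with exosomes, at 4.78 RPKM with PBS and 3.71 RPKM with exosomes. The ratio of Cxcl10 was 0.776 (counting interval 0.697 to 0.865), and with the shortest transcript as its length the interval widened to 0.588 to 1.03. Its neighbours Cxcl9 and Cxcl11, the other ligands of CXCR3, were listed at 0 in both libraries. Of 21 genes of the interferon response that were listed beside it, 18 were kept, of which 9 were at least 2-fold higher and 0 lower, against 31.5% and 5.62% of all genes kept. Usp18, an interferon-induced protease, had a ratio of 6.84, Ifit2 of 6.17, Irf7, which encodes a transcription factor of the response, of 6.04, Ifit3 of 5.29, Isg15 of 4.75 and Ifit1 of 4.08. After median centring 6 of the 18 stayed past the 2-fold limit, against 16.8% of all genes kept called higher. Ifnb1, which encodes interferon-β, stood at 0.04 RPKM with PBS and 0.03 RPKM with exosomes. The other 9 of the 18 stayed within 2-fold, and among them Irf1 (19.55 and 15.04 RPKM), Irf8 (5.82 and 5.05 RPKM) and Ifnar2 (115.55 and 102.11 RPKM) had, like Cxcl10, the lower level with exosomes.

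Cxcl16 (chromosome 11, 70453983 to 70459984, minus strand) was rare with PBS, at 0.47 RPKM, and stood at 2.14 RPKM with exosomes. These levels corresponded to about 84 and 457 reads, and the ratio was 4.55 (counting interval 3.59 to 5.79). At least 4-fold higher levels were found in 8.52% of all genes kept. The log2 ratio of Cxcl16 was 2.19 as deposited, 1.66 after median centring and 1.09 with 1 RPKM added to both levels. Adam10, the protease that sheds CXCL16 from the membrane, had 22.9 RPKM with PBS and 39.31 RPKM with exosomes, and Adam17 had 151.07 and 141.41 RPKM. The receptor gene Cxcr6 was listed at 0 in both libraries.

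Ccl2 (ENSMUSG00000035385, chromosome 11, 82035571 to 82037453, plus strand), which encodes the monocyte attractant MCP-1, had the largest ratio of the 10 ligands and, with PBS, the fewest reads. Its level was 0.13 RPKM with PBS and 1.72 RPKM with exosomes, which stood for about 9 and 149 reads. The ratio of Ccl2 was 13.2 (counting interval 7.08 to 30.8), and rounding of the level to 0.01 RPKM adds to this error. Adding 1 RPKM to both levels, which damps rare genes, brought the log2 ratio from 3.73 to 1.27. Its neighbour Ccl7, which encodes a related monocyte attractant, stood at 0.02 RPKM with PBS and 0.43 RPKM with exosomes, or about 1 and 27 reads, a ratio of 21.5 (counting interval 3.71 to 922). The next genes of this cluster, Ccl11 and Ccl12, were listed at 0 in both libraries, and Ccl8 at 0 with PBS and 0.02 RPKM with exosomes. The macrophage markers C1qa (0.18 and 1.42 RPKM) and Cx3cr1 (0.1 and 1.39 RPKM) had levels in the same range as Ccl2 and were likewise higher with exosomes. The part of such cells in the result was not tested. Over both libraries, the genes nearest to Ccl2 in level were Siglec1 (0.13 and 1.59 RPKM), Cxx1a (0.15 and 1.54 RPKM) and Ifi44 (0.13 and 1.42 RPKM), at 0.113, 0.261 and 0.277 log2 units.

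**Figure D3:**
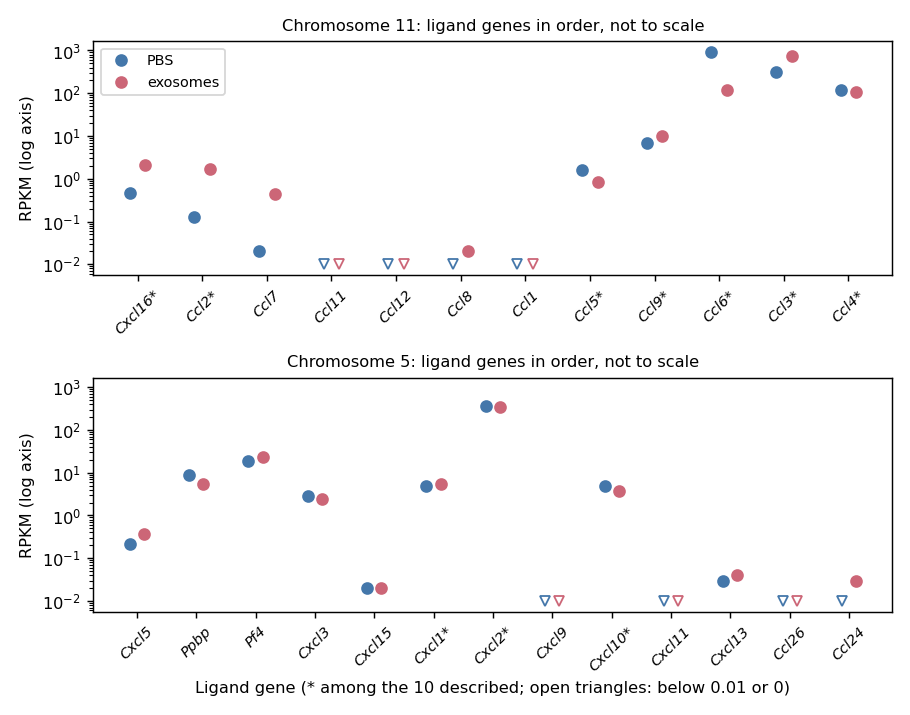
RPKM (log axis) of the chemokine ligand genes of chromosomes 11 and 5 in their order along the chromosome, not to scale, with PBS (blue) and with exosomes (red); stars mark the 10 ligands described and open triangles mark genes below 0.01 RPKM. Abundant genes stand beside rare ones in both clusters. On chromosome 11 the neighbours Ccl9 and Ccl6 differ in their change, Ccl6 standing at 131.8 times Ccl9 with PBS and 11.99 times with exosomes.

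The other chemokine ligands were mostly near absence. Of 31 further ligand genes 30 were found in the tables, 11 of them listed at 0 in both libraries and 21 below 0.1 RPKM in both. Only 5 were kept (Ccl22, Ccl25, Cxcl3, Pf4 and Ppbp). Of these, 0 were called in either direction, against 31.5% higher and 5.62% lower of all genes kept. After median centring Ppbp alone was called lower, against 13.2% of all genes kept. Cxcl3, a close relative of Cxcl2, stood at 2.86 RPKM with PBS and 2.37 RPKM with exosomes. The platelet chemokine genes Pf4 and Ppbp had 19.1 and 9.07 RPKM with PBS and 23.32 and 5.34 RPKM with exosomes. The 4 abundant members were thus also the 4 most abundant of the 40 ligand genes found.

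Chemokine receptor genes, among them receptors of other ligands, were compared with the same limits. Of 24 receptor genes 10 were kept, of which 0 were at least 2-fold higher and 5 at least 2-fold lower with exosomes, against 31.5% and 5.62% of all genes kept. After median centring 0 were higher and 5 lower, against 16.8% and 13.2%. Ccr1, whose protein binds CCL3, CCL5, CCL6 and CCL9, stood at 383.78 RPKM with PBS and 101.97 RPKM with exosomes, and Cxcr2, whose protein binds CXCL1 and CXCL2, at 780.77 and 324.93 RPKM. Cxcr3, whose protein binds CXCL10, stood at 3.39 and 1.23 RPKM. Ccr2, whose protein binds CCL2, was rare, at 0.5 and 0.88 RPKM. Ccr1 and Cxcr2 were thus at lower levels in the library in which Ccl3 was higher and Cxcl2 was within 2-fold. Both are also neutrophil-expressed genes, and Cxcr2 is among the 10 neutrophil markers above.

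Genes that act on chemokine messages upstream differed among themselves. Of 14 genes of the NF-κB system, which drives many chemokine promoters, 5 were at least 2-fold higher and 1 lower. These numbers were near the 31.5% and 5.62% of all genes kept. After median centring 0 were higher and 1 lower, against 16.8% and 13.2%. Nfkb1 had a ratio of 2.85, Nfkbib of 2.38, Nfkb2 of 2.28, Nfkbia of 2.16 and Relb of 2.15, while Ikbkg, which encodes the NEMO subunit of the IκB kinase, had a ratio of 0.352. Of 8 genes of messenger decay, 3 were higher and 1 lower as deposited, again near the shares of all genes kept. After median centring 3 of the 8 were still higher and 1 lower, against 16.8% and 13.2%. Zfp36, whose product tristetraprolin shortens the life of chemokine messages, stood at 377.43 RPKM with PBS and 280.29 RPKM with exosomes. Its relatives Zfp36l1 (8.32 and 72.04 RPKM) and Zfp36l2 (353.97 and 112.63 RPKM) went in opposite directions. Zc3h12a, which encodes the endonuclease regnase-1, had a ratio of 2.98 and Traf3ip2, which encodes the adaptor ACT1, of 5.69. Of 9 genes of enzymes that cleave chemokines, Prtn3 was called higher (1.14 and 2.9 RPKM) and Mmp8 lower (832.76 and 199.67 RPKM), against 31.5% and 5.62% of all genes kept. After median centring 0 of the 9 were higher and 3 lower, against 16.8% and 13.2%.

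**Figure D4:**
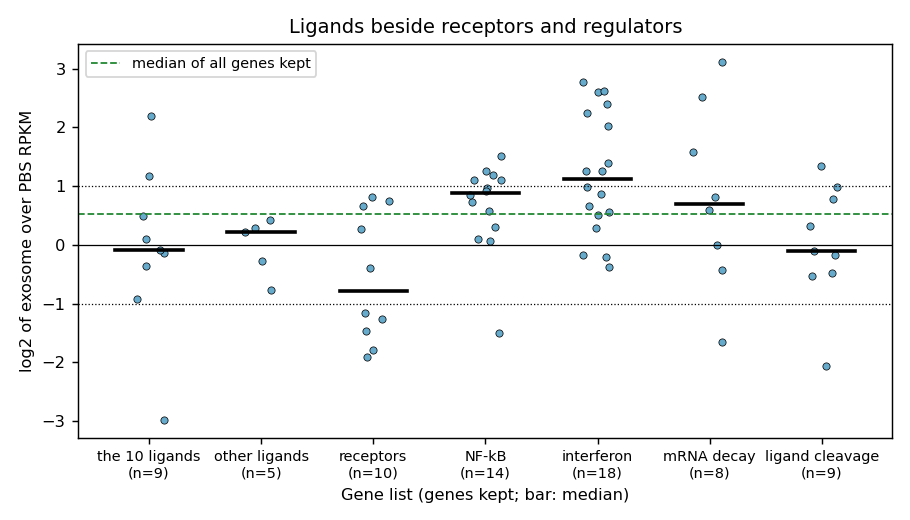
Log2 of the exosome over the PBS RPKM for each gene kept, by list, with the median of each list as a black bar, the median of all genes kept (0.53) as a dashed green line and the 2-fold limits dotted. The median is -0.08 for the chemokine ligands described, -0.78 for receptors, 0.88 for the NF-κB system and 1.12 for interferon-response genes.

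The upstream sequences of 6 members, Cxcl1, Cxcl2, Cxcl10, Ccl9, Ccl6 and Ccl3, were at hand (RefSeq, GRCm38.p6). They are shown for 5 of these genes because they pair neighbours with similar (Cxcl1 and Cxcl2) and different (Ccl9 and Ccl6) changes, and because Cxcl10 has the only interferon-type match of the 6. Each window has 100 bases, from base 125 to base 26 before the transcription start, and from base 230 to base 131 for Cxcl10. The starts are those of RefSeq. For Cxcl2 the RefSeq start lies downstream of the gene start given above (90903871), and the window ends at 90903873. Capitals mark matches to a κB-type motif (GGGNNTTTCC), an interferon-stimulated response type motif (TTTCNNTTTC) or an AP-1-type motif (TGANTCA), on either strand.
Cxcl1 (chr5:90891120-90891219, plus strand): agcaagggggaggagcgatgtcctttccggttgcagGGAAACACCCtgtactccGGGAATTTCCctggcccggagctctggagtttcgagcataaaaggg
Cxcl2 (chr5:90903774-90903873, plus strand): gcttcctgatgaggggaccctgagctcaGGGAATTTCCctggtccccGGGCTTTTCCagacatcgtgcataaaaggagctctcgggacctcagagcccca
Ccl9 (chr11:83578662-83578761, minus strand): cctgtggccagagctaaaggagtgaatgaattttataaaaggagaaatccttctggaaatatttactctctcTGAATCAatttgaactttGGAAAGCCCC
Ccl6 (chr11:83593113-83593212, minus strand): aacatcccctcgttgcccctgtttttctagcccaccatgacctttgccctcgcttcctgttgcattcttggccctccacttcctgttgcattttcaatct
Cxcl10 (chr5:92349020-92349119, minus strand): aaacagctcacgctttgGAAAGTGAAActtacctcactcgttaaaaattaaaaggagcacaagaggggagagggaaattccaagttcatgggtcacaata
In the 250 bases before the start, the κB-type motif matched Cxcl1 and Cxcl2 at 2 places each and Ccl9 at 1, against 1.4% of 27025 promoters with a match. The interferon type matched Cxcl10 alone, against 3.04% of promoters. The AP-1 type matched Cxcl10, at base 74 before the start and outside the window shown, and Ccl9, against 6.87%. A C/EBP-type motif (TTNNGNAA, 36.9% of promoters) matched Cxcl2, Cxcl10, Ccl9 and Ccl3, and overlapped the κB-type match in Ccl9 and the interferon-type match in Cxcl10. The letters TATAAA on the sense strand (8.12% of promoters) matched Ccl9 alone. A match is a description of letters, and its absence says nothing of a factor's binding. The Cxcl10 window, for instance, holds the letters gggaaattcc, which come close to the κB-type pattern without matching it. Cxcl1 and Cxcl2, both with the letters GGGAATTTCC and both within 2-fold, differed 73.8-fold in level with PBS.

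**Figure D5:**
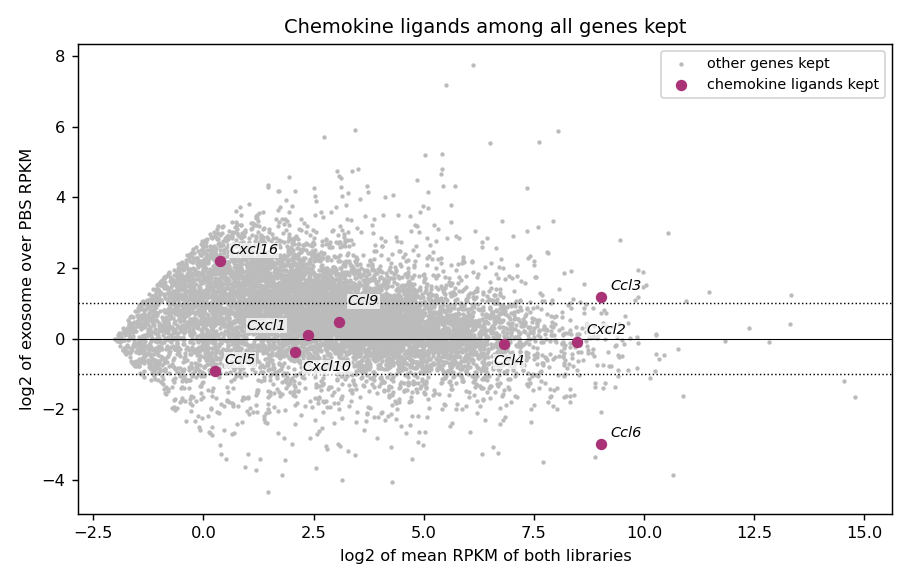
Log2 of the exosome over the PBS RPKM (vertical axis) against log2 of the mean RPKM of both libraries for all 9698 genes kept (grey), with the 9 chemokine ligands kept in purple; dotted lines are the 2-fold limits. Ccl6 and Ccl3 have similar mean levels and lie on opposite sides, at -2.97 and 1.18.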

How the data were processed

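PolyA-selected RNA of PBS-treated and exosome-treated neutrophils (1 library each) was sequenced. After quality trimming, the authors used CLC Genomics Workbench (build mm10 per the labels) to obtain the RPKM values they deposited for each gene. The gene annotation and the handling of reads shared between genes are not given in the sources used here.

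With the RPKM and fold limits stated in the headings of the study's gene lists, genes were kept (9698 of 35522) where both RPKM values reached 0.25, and a ratio of at least 2 was called, without a pseudocount. With 1 library per group no test of the treatments was run. Mapped reads were estimated from values under 0.01 RPKM that stood for 1 read: 184 of 918 such values (PBS) and 227 of 1064 (exosomes) gave the same total with the longest GENCODE M21 transcript as length. Counting intervals are exact intervals of estimated reads (Clopper-Pearson for ratios, Poisson for levels). On a 1-kb message, 3 reads give 0.0455 (PBS) or 0.0379 RPKM (exosomes). Alternatives were other scalings, pseudocounts, filters and a ratio of at least 4. Scripts (Python 3.11.15, scipy 1.17.1, Biopython 1.88) were tested on simulated data.

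All 10 ligands were named. From the other lists, genes reaching 0.25 RPKM in either library were named, those changed most first. Exceptions, such as Ifnb1, Cd3e and genes listed at 0, were chosen after their values were seen. The genes nearest to the largest increase and decrease were found by distance between log2 levels. The members and lists were chosen with earlier results of these data known.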

Additional observations from a re-analysis of the deposited data

How the results depend on the processing

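As deposited, 2 of the ligands kept were called higher and 1 lower, their median log2 ratio was -0.08, and their summed level had a ratio of 0.756. Median centring gave 1 higher and 2 lower, a median of -0.61 and a summed ratio of 0.525, and 1 of the further ligands, Ppbp, became lower. Removing a trimmed mean of log ratios gave 1, 2, -0.62, 0.520 and again 1 further ligand lower. Rescaling to the summed RPKM gave a median of -0.033 and a summed ratio of 0.782, and rescaling without S100a8 and S100a9 gave 2 lower, -0.25 and 0.671. A filter at 1 RPKM in both libraries left Ccl3 alone called higher, and a 4-fold limit left Cxcl16 alone. A filter at 0.25 RPKM in either library, with 0.25 added to both values, gave 3 higher, among them Ccl2, a median of 0.0079 and 1 further ligand higher, Ccl7. Of 60 recomputed log2 ratios of single ligands (6 scalings or pseudocounts), 55 kept their sign, and the other 5 were those of Ccl9 and Cxcl1 under centring or rescaling. Ccl6 stayed called lower under each alternative run. No paired analysis was possible because each group has 1 library. Depth limits the rare ligands Ccl2, Ccl5 and Cxcl16 most.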
